A study of Homo sapiens with 2 samples.

Results

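TRF2 peaks on the unlocalized contigs of the human assembly were 787 of the 24258 peaks in the list, or 3.24% (exact binomial 95% interval 3.02% to 3.48%). An unlocalized contig is a stretch of sequence that the assembly assigns to a chromosome without an order or an orientation on it, and hg38 marks its name with the ending "random". The members were the peaks on sequences with that ending, grouped by the chromosome named at the start of the sequence name, and the rule uses no measured value. They lay on 33 contigs of 11 chromosomes. The cells were HCT116, an established colorectal carcinoma line, grown in high-glucose medium with serum, fixed with formaldehyde and immunoprecipitated with an anti-TRF2 antibody from Novus. The other group was Input, chromatin of the same line with no antibody. With 1 library in each group the design allows no test between samples, and each interval given here covers counting error only. Neighbouring peaks on a contig are not independent of each other.

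TRF2 is a subunit of shelterin, the complex that caps chromosome ends, and its Myb-type domain binds the double-stranded telomere repeat. Sequence that an assembly cannot order is often rich in satellite DNA and segmental duplications, because near-identical copies are hard to place. Satellite DNA makes up much of the centromeres and of the short arms of the acrocentric chromosomes, among them 14, 15 and 22. Reads from such copies can align to several places, and how the authors treated such reads is not known here. No genome sequence or annotation of these contigs was used here, so peaks are given by position on the contig, and the repeats and genes under them were not analysed here.

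For each peak the authors' list gives a fold over the input background at the summit. The immunoprecipitated pileup is the number of fragments over the summit. The background is the level from the input on which that fold and its p-value rest. Both were recovered from the fold and the p-value. Many peaks share the lowest background, 1.05, and for these the input at the summit itself was not recovered. For the other peaks, whether the background is the input at the summit itself was not tested. The members had a median fold of 3.99 (quartiles 3.42 to 5.27, highest 23.4), a median pileup of 12 reads and a median background of 1.63. A peak with a −log10 q of 5 or more is called strong here. Strong members numbered 321, or 40.8% (37.3% to 44.3%), against 30.0% of all peaks in the list. The share was 34.2% (31.5% to 37.0%) on the unplaced contigs, which are assigned to no chromosome, 29.9% (29.1% to 30.6%) in the centromere bands and 28.6% (27.6% to 29.7%) on the rest of the primary chromosomes. The median fold was 4.30 on unplaced contigs, 4.16 in the centromere bands and 3.90 on the rest of the primary chromosomes. The members' median of 3.99 was thus below the first 2 of these. Their upper quartile of pileup was 35 reads, against 22, 19 and 17 in the same order. A q-value under 0.05 was reached by 664 members (84.4%), against 79.3% of all peaks. It was reached by 83.3% on unplaced contigs, 82.5% in the centromere bands and 71.3% on the rest of the primary chromosomes. Members of fold 10 or more numbered 23 (2.92%, interval 1.86% to 4.35%), against 1.96% of all peaks, a value inside that interval. Such folds made up 4.62% (3.49% to 5.99%) on unplaced contigs and 3.31% (2.90% to 3.75%) on the rest of the primary chromosomes. Both shares were above that of the members, but their intervals overlap that of the members. In the centromere bands such folds made up 1.09% (0.927% to 1.26%). The 2 contigs of highest input with the most peaks, GL000225v1 and KI270709v1, bore on the share of strong members: without them it was 35.7% (32.0% to 39.5%).

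The peaks were concentrated on a few contigs. Contigs of chromosome 22 held 257 members (32.7%), those of chromosome 17 held 192 and those of chromosome 14 held 164, so these 3 chromosomes held 77.9%. Chromosome 1 followed with 53, chromosome 5 with 27, chromosomes 2 and 3 with 25 each, chromosome 4 with 18, chromosome 16 with 13, chromosome 9 with 12 and chromosome 15 with 1. Among single contigs, KI270729v1 of chromosome 17 had 149 peaks, GL000225v1 of chromosome 14 had 109 and KI270736v1 of chromosome 22 had 96. These 3 held 45.0% of the members. Of the 33 contigs, 17 had 10 or more peaks, the other 16 shared 61, and 5 had a single peak. Strong peaks were less widely spread: 15 contigs, with 116 peaks between them, had none. Contig lengths were not used here, so no density per contig length is given.

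**Figure D1:**
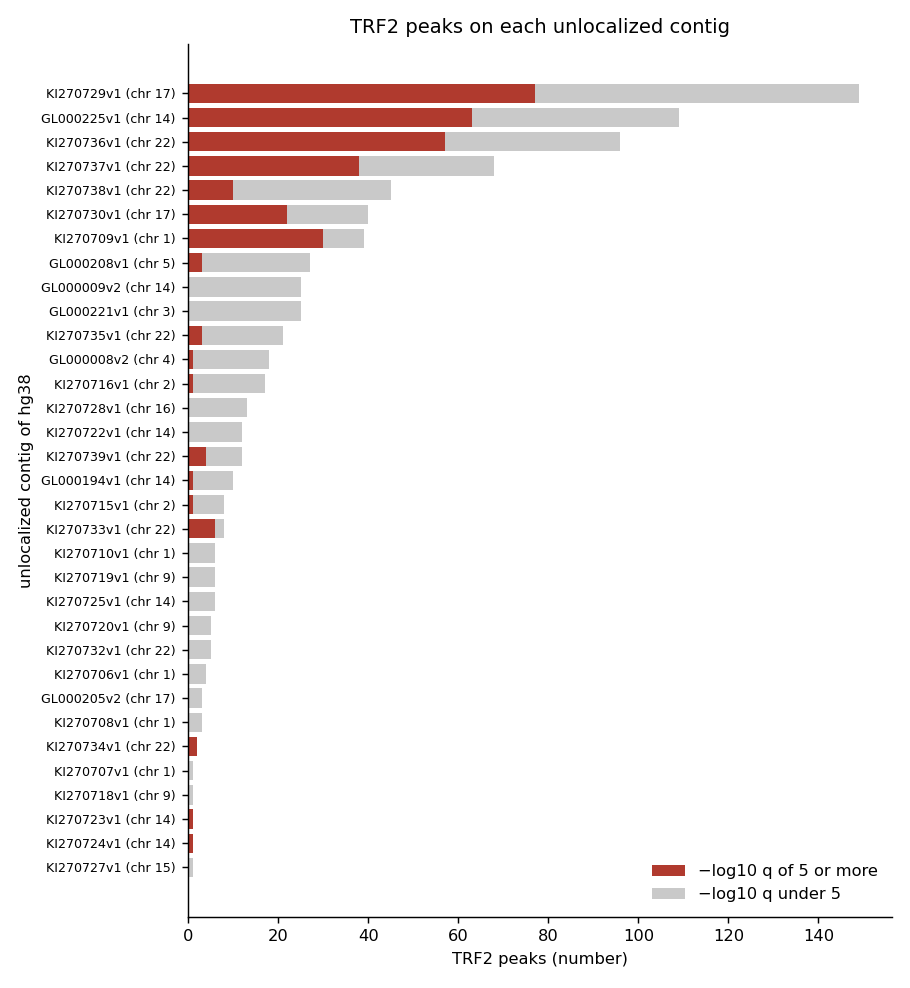
Number of TRF2 peaks (horizontal axis) on each of the 33 unlocalized contigs of hg38 (vertical axis, with the chromosome in brackets), split into strong peaks (red) and others (grey). KI270729v1, GL000225v1 and KI270736v1 hold 149, 109 and 96 peaks, and 15 contigs have no red part.

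Most contigs could be described as one of 3 kinds by their folds and the depths behind them, a division made after the values were seen. On the first, some peaks reached a fold of 10 or more over a low or moderate input. These were 4 contigs, which held all 23 such members: 10 on KI270729v1 and 3 on KI270730v1 of chromosome 17, and 7 on KI270736v1 and 3 on KI270737v1 of chromosome 22. Their median folds were 4.88, 4.42, 4.43 and 5.37, and their median backgrounds 1.13, 3.38, 3.95 and 1.49. Between 51.7% and 59.4% of their peaks were strong. Their medians were not the highest: KI270734v1 of chromosome 22 had a median fold of 7.51 from 2 peaks, both strong. KI270715v1 of chromosome 2 had 4.73 from 8 peaks, and neither contig had a fold of 10.

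On the second kind, both libraries were deep. GL000225v1 had a median pileup of 55 reads over a median background of 23.7, and KI270709v1 of chromosome 1 had 108 reads over 22.5. Their median folds were 2.71 and 3.90, yet 57.8% and 76.9% of their peaks were strong. KI270733v1 of chromosome 22 belonged here too, with 8 peaks of median pileup 58 over a median background of 20.9, as did KI270723v1 and KI270724v1 of chromosome 14, with 1 peak each. These 5 contigs held 158 members. A strong call therefore stood for unlike values: of the 321 strong members, 61 had a fold under 3, and 43 of those 61 were on GL000225v1 and 9 on KI270709v1.

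On the third kind, the peaks were barely deeper than the shallowest in the list. The whole-number pileup shows in the fold: at the background minimum of 1.05, 5 reads give a fold of 2.93, 6 give 3.41, 7 give 3.90, 8 give 4.39 and 11 give 5.85. At that minimum a peak needs 11 reads to be strong (−log10 q 5.09), and 274 members (34.8%) lay there. GL000009v2 of chromosome 14 was of this kind, with 25 peaks, a median pileup of 7 reads, 84.0% of peaks at the background minimum and none strong (upper limit 13.7%). GL000221v1, the single contig of chromosome 3, likewise had 25 peaks, a median of 7 reads and none strong. The contigs of chromosomes 2, 4, 5, 9 and 16 also had low median pileups, of 7 to 10 reads, but not all of their peaks were shallow: 7 of the 18 peaks of GL000008v2 on chromosome 4 had 25 to 58 reads over backgrounds of 7.09 to 30.5, and the 8 peaks of GL000208v1 on chromosome 5 from 80 to 100 kb had a median of 17 reads over 6.77.

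**Figure D2:**
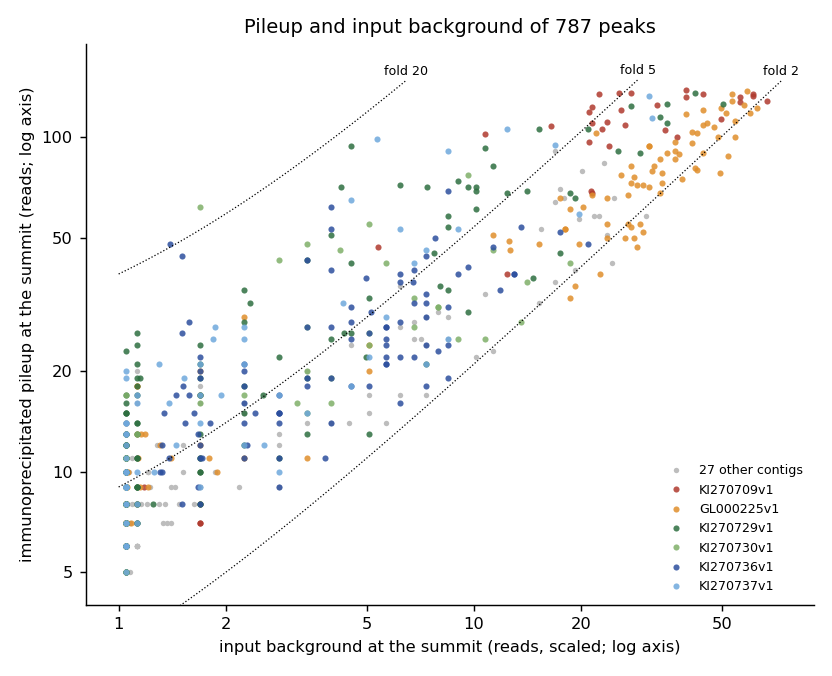
Immunoprecipitated pileup at the summit (vertical log axis, reads) against input background (horizontal log axis, scaled reads) for the 787 members, coloured by contig, with dotted lines of equal fold. Most peaks of KI270709v1 and GL000225v1 lie to the upper right, at backgrounds of 15 or more, while the 10 highest folds, on contigs of chromosomes 17 and 22, lie at backgrounds of 1.13 to 5.33.

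The 10 members of highest fold were 5 on chromosome 17 and 5 on chromosome 22. The highest, on KI270730v1 from 33557 to 33665, had a fold of 23.4 from 62 reads over a background of 1.69. It ranked 14th by fold in the whole list. KI270736v1 gave the next pair, at 118636 to 118772 (fold 20.5, 48 reads) and 79921 to 80012 (fold 17.9, 44 reads). On KI270729v1 the peak from 54633 to 54780 had a fold of 17.2 from 94 reads, and on KI270737v1 the peak from 33277 to 33407 had 15.8 from 99 reads. These 5 were also the members among the 100 highest folds of the list. The other 5 had folds of 11.7 to 13.8. They lay on KI270729v1 at 26919 to 27022, 233189 to 233281 and 236443 to 236531, on KI270736v1 at 147680 to 147944, and on KI270737v1 at 41540 to 41649. All 10 had widths from 89 to 265 bp, against a median of 100 bp (quartiles 76 to 153) over the members.

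The contigs of other chromosomes had no peak of fold 10 or more. Their highest fold was 9.21 on chromosome 14 (GL000225v1, 198345 to 198686, 29 reads) and 8.79 on chromosome 1 (KI270709v1, 17 to 352, 102 reads over a background of 10.7). It was 7.32 on chromosome 5 (GL000208v1, 11107 to 11208), 5.85 on chromosome 2 (KI270715v1, 68707 to 68789, tied with KI270716v1, 345 to 438) and 5.37 on chromosome 4 (GL000008v2, 18518 to 18603). The last 4 were 5.16 on chromosome 9 (KI270720v1, 11250 to 11328), 4.88 on chromosome 16 (KI270728v1, 1580911 to 1581003, tied with 1586473 to 1586544), 4.70 on chromosome 3 (GL000221v1, 15212 to 15415) and 3.90 on chromosome 15 (KI270727v1, 20848 to 20916). These last 4 rested on 7 to 12 reads.

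**Figure D3:**
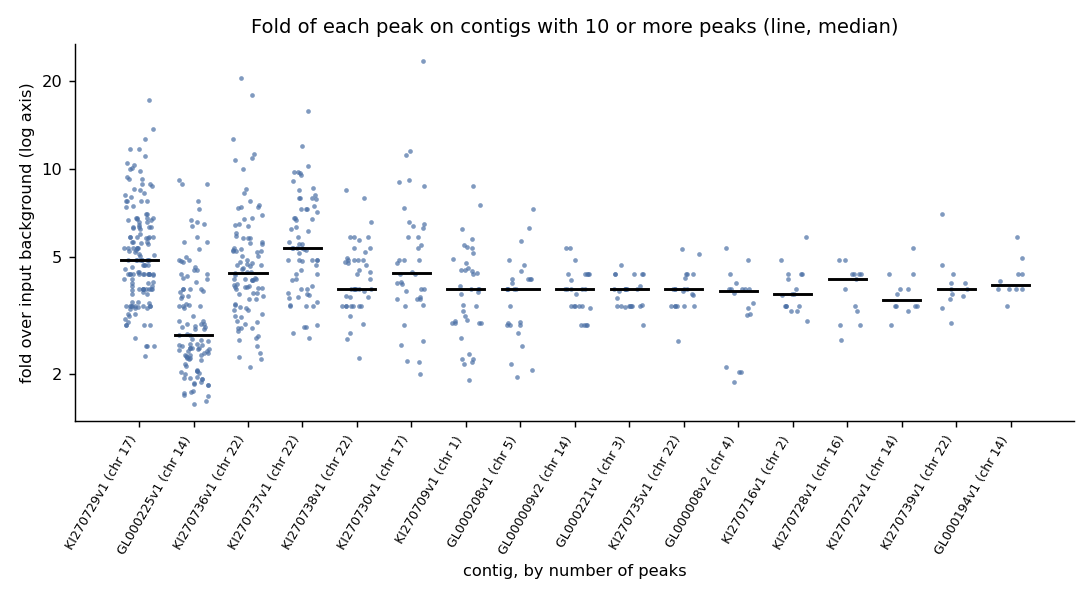
Fold over input background (vertical log axis) of each peak on the 17 contigs with 10 or more peaks, ordered by number of peaks, with a line at the median. Folds above 10 occur on KI270729v1, KI270736v1, KI270737v1 and KI270730v1, and GL000225v1 has the lowest median, 2.71.

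Ranking by reads gained over the background, instead of by their ratio, gave other peaks. This surplus, the pileup minus the background, was largest on KI270709v1 from 5172 to 6010, where 135 reads stood over a background of 22.5 (surplus 112, fold 5.78). Of the 10 largest surpluses 7 were on KI270709v1, 2 on KI270729v1 and 1 on KI270737v1, with folds of 3.21 to 5.78, and 0 of these 10 were among the 10 highest folds. The largest pileup in the list was 138 reads, which 1 member reached. It was also the largest on the unplaced contigs, in the centromere bands, on the rest of the primary chromosomes and on the mitochondrial genome. Whether pileups were capped there, which would bound the fold of peaks over a deep input, was not tested. The 54 members with 100 or more reads had folds of 1.83 to 8.79 (median 3.01), and 24 of them were on KI270709v1, 19 on GL000225v1, 8 on KI270729v1 and 3 on KI270737v1.

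Several contigs changed character along their length. On GL000225v1 the 70 peaks with summits from 5480 to 135013 had a median background of 31.9, a median pileup of 78.5 reads and a median fold of 2.36 (highest 4.52). The 39 peaks beyond, from 144608 to 208864, had a background of 1.13, a pileup of 11 reads and a fold of 4.53 (highest 9.21). The high-input stretch had 50 strong peaks and the other 13. Of the latter, 11 fell in the 20 kb from 180 to 200 kb, where 24 peaks had a median fold of 5.17. The edge at 140 kb was set after the values were seen, as were those that follow.

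KI270709v1 had a similar step near its 20 kb mark. Its first 29 peaks, with summits from 211 to 19397, were all strong, with a median pileup of 119 reads over a background of 25.9 and a median width of 431 bp. The next 10, from 20326 to 35375, had 7 reads over 1.05, a median width of 87 bp and 1 strong peak. Median folds were close, 3.74 and 3.90. Peaks covered 41.8% of the stretch from the first to the last peak of this contig, against 9.14% on KI270729v1, 7.01% on GL000225v1 and 6.17% on KI270736v1. Merging peaks with gaps of at most 500 bp left 10 intervals on KI270709v1 from its 39 peaks.

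On KI270729v1 the depth differed along the contig far more than the fold. Its 55 peaks with summits up to 59736 had a median pileup of 43 reads over a background of 5.08 and a fold of 5.28, and 45 of them were strong. The 94 beyond had 10 reads over 1.05, a fold of 4.79 and 32 strong peaks, and 6 of those 94 still reached a fold of 10. The first 20 kb of the contig had the deepest input of its 20 kb bins, with a median background of 10.7, and the widest member, 2928 bp from 930 to 3857 (136 reads over 41.7, fold 3.21).

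**Figure D4:**
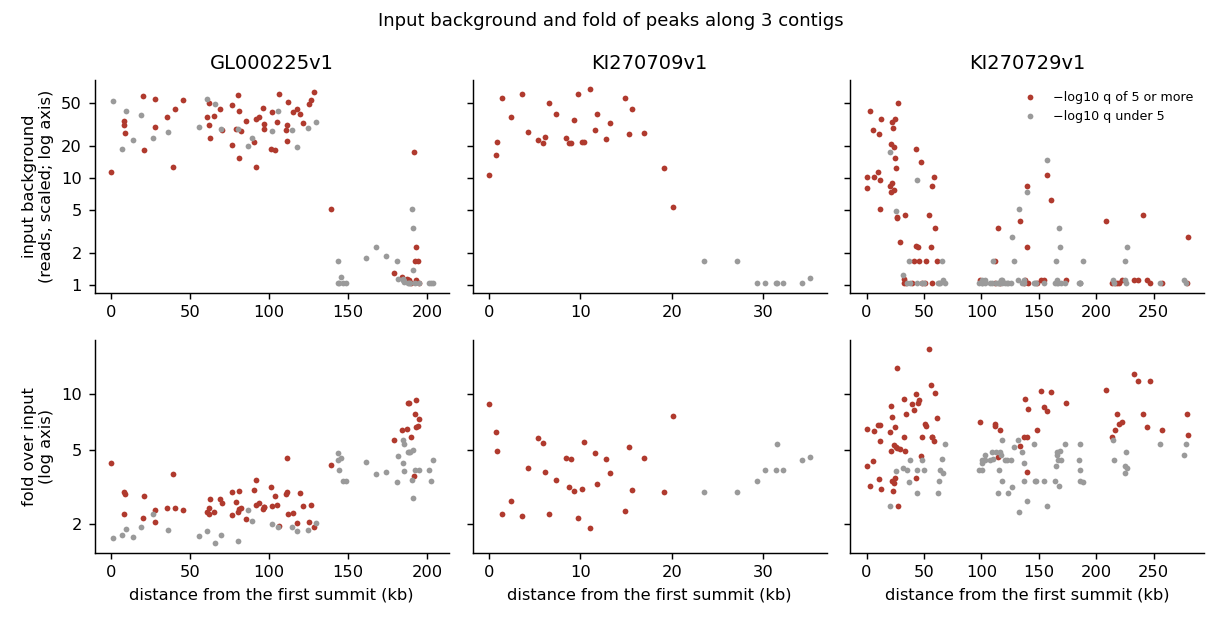
Input background (upper row, log axis, scaled reads) and fold (lower row, log axis) of each peak against distance from the first summit in kb on GL000225v1, KI270709v1 and KI270729v1, with strong peaks in red and others in grey. The background drops from a median of 31.9 to 1.13 on GL000225v1 and from 25.9 to 1.05 on KI270709v1, and on KI270729v1 folds of 10 or more lie on both sides of 60 kb.

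Other contigs showed steps along their length as well. KI270735v1 of chromosome 22 had 18 peaks up to 34940 with a median pileup of 7 reads and none strong. Its last 3, from 39822 to 42374, had 66 to 91 reads over backgrounds of 16.9 to 24.8, all strong. On GL000008v2 of chromosome 4, the first 7 peaks, up to 6943, had a median of 32 reads over 15.2 and a fold of 2.11, and the 11 beyond had 7 reads over 1.05 and a fold of 3.90. On KI270730v1 the order was the reverse: 18 peaks up to 75557 had a median of 10.5 reads over 1.05 (fold 5.12) and 22 from 81930 had 29.5 over 6.21 (fold 3.93).

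KI270736v1 had no such stretch at the minimum. None of its 96 peaks had a background at the list's floor, whereas KI270737v1 had 36.8% and KI270738v1 46.7% of their peaks at the floor. Its first 2 peaks were weak (folds up to 2.96), the longest interval between neighbouring summits was 47.1 kb, and from 60 to 120 kb it had 38 peaks with median folds of 4.98 to 5.28 per 20 kb bin. Of the 45 peaks of KI270738v1, 22.2% were strong (11.2% to 37.1%), against 59.4% (48.9% to 69.3%) on KI270736v1 and 55.9% (43.3% to 67.9%) on KI270737v1. On KI270739v1, also of chromosome 22, 33.3% of 12 peaks were strong (9.92% to 65.1%), an interval that overlaps all of these.

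On some contigs the peaks were grouped. On KI270728v1, the single contig of chromosome 16, all 13 peaks had summits from 1064454 to 1591819, with an empty interval of 468 kb between the third and the fourth. They had 5 to 9 reads and none was strong. On KI270725v1 of chromosome 14 all 6 peaks lay within summits 103289 to 107162, with 5 to 8 reads. On KI270733v1 of chromosome 22 the first of the 8 peaks was at 119183 and the other 7 at 145043 to 154325, with folds of 1.69 to 3.78.

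Contigs of a chromosome were then set beside its placed sequence, since both are assigned to the same chromosome. Strong peaks made up 46.7% (40.5% to 53.0%) on contigs of chromosome 22, against 19.6% (15.9% to 23.9%) on its placed sequence. The pairs were 51.6% (44.3% to 58.8%) and 25.6% (23.0% to 28.4%) for chromosome 17, and 40.2% (32.7% to 48.2%) and 9.05% (5.76% to 13.4%) for chromosome 14. For chromosome 1 they were 56.6% (42.3% to 70.2%) and 50.6% (48.6% to 52.6%), which overlap. Single contigs decided 2 of these values: without GL000225v1 the share on chromosome 14 contigs was 5.45% (1.14% to 15.1%), and without KI270709v1 it was 0 of 14 on chromosome 1 (upper limit 23.2%). Without KI270729v1 it was 51.2% (35.5% to 66.7%) on chromosome 17. Without KI270736v1 it was 39.1% (31.5% to 47.1%) on chromosome 22, lower than with it and with an interval still apart from that of the placed sequence.

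The other direction was seen on chromosome 16, where 0 of 13 contig peaks were strong (upper limit 24.7%), against 34.2% (30.0% to 38.5%) on its placed sequence. Chromosome 2 had 8.0% (0.984% to 26.0%) on contigs and 22.3% (19.3% to 25.5%) on placed sequence, and chromosome 3 had 0 of 25 and 13.5%. The intervals overlap for chromosomes 2, 3, 4, 5 and 9. Against the placed centromere bands alone, the intervals overlap for chromosome 14, whose band had 19.4% strong (7.45% to 37.5%), and for chromosome 16, with 25.0% (18.9% to 31.9%). They are apart for chromosome 17, with 23.5% (20.6% to 26.6%), and for chromosome 22, with 26.8% (19.2% to 35.6%). Without KI270736v1 the contigs of chromosome 22 had 39.1% (31.5% to 47.1%), still above the 26.8% of its band but with an overlapping interval. Overlap of intervals does not show that the shares are equal, and no difference was tested. For chromosome 17 the intervals stayed apart without KI270729v1, at 51.2% (35.5% to 66.7%). Median folds differed less than shares of strong peaks: they were 4.37 and 4.10 on chromosome 22, 4.88 and 4.30 on chromosome 17, 3.41 and 3.90 on chromosome 14, and 3.90 and 3.64 on chromosome 1.

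**Figure D5:**
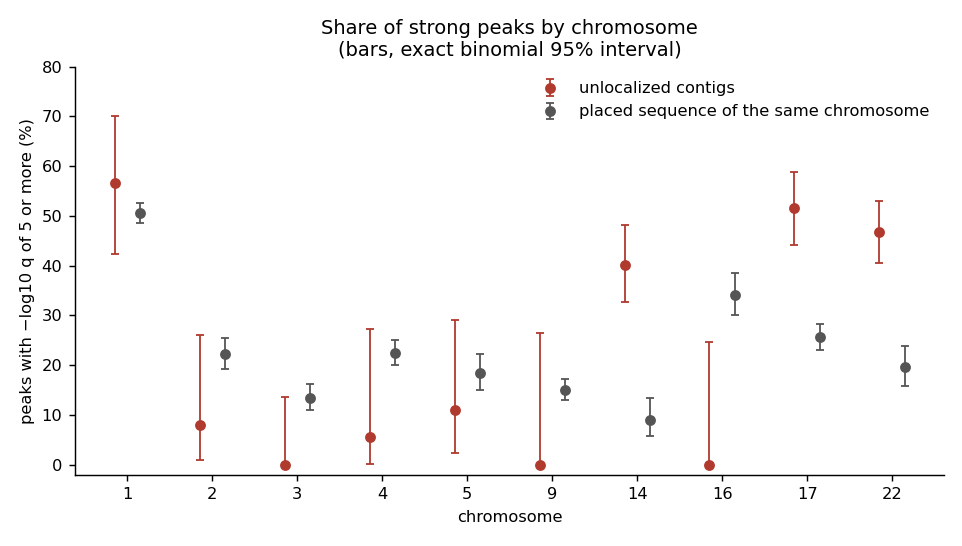
Share of strong peaks, those of −log10 q at least 5 (vertical axis, percent) on unlocalized contigs (red) and on the placed sequence of the same chromosome (grey), for the 10 chromosomes with at least 10 contig peaks, with exact binomial 95% intervals. The intervals are apart for chromosomes 14, 16, 17 and 22, with the contigs lower on chromosome 16.

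Peak spacing was compared with the length of alpha satellite, the tandem repeat of human centromeres, whose unit length was taken from its consensus. Of 510 distances between neighbouring summits of 100 to 2000 bp on unlocalized contigs, 51 (10.0%, interval 7.54% to 12.9%) lay within 10 bp of a whole multiple of that unit. Such positions make up 12.3% of all remainders, so no excess was seen. The share was 13.1% (12.5% to 13.8%) in the centromere bands, 13.3% (12.1% to 14.5%) on the rest of the primary chromosomes and 11.7% (9.63% to 14.1%) on unplaced contigs. This measure did not set the centromere bands apart from the rest of the primary chromosomes. It therefore cannot tell whether the contigs hold alpha satellite. Of the 7 contigs with at least 20 such distances, KI270736v1 had the highest share, 14.9% (7.66% to 25.0%), and KI270730v1 the lowest, 4.55% (0.115% to 22.8%). The median distance in this range was 664 bp on unlocalized contigs and 611 bp in the centromere bands, and the lower quartile on unlocalized contigs was 379 bp.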

How the data were processed

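TRF2 chromatin immunoprecipitation and input, 1 library each, were sequenced from HCT116 cells. Per the submitters' processing notes, the tools included MACS2 2.1.0 and Bowtie2 2.3.2, beside ChIPseeker 1.36.0 and HOMER, and the build was hg38 (GRCh38). Their settings, including what was done with duplicate and multiply aligned reads, are not given in these sources. The name of the peak list mentions a control siRNA and the labels mention none, so cells are described as labelled. The deposited values were a fold (ratio over input background), a −log10 p, a −log10 q and a score, which is 10 times the −log10 p, rounded down. They are the authors' values and were used inside this list, to rank and filter peaks and to recover the depths behind them. No −log10 p was under 3.01.

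Pileup and background were recovered taking fold as pileup plus 1 over background plus 1 and p as the upper Poisson tail. A whole pileup matched within 0.001 on −log10 p in 100% of peaks. More than 1 matched for 1 member, where the closest was taken. The recovery was tested on data simulated with these same formulas. That checks only that the formulas can be inverted, not what the background stands for. Library totals were not used here. Centromere bands came from circlize 0.4.16. Intervals are exact binomial (Clopper-Pearson). No test was run. Coordinates are 1-based, on hg38 contigs.

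Contigs with 10 or more peaks, the 10 members of highest fold and the highest of each chromosome were named (equal folds ordered by −log10 q, then by sequence name and start); others were chosen after their values were seen. The rule for members uses sequence names alone, but it and the settings were chosen with earlier results of these data known. Telomere repeats in peaks were not analysed here. Versions were R 4.3.3, Python 3.11.15, scipy 1.17.1, numpy 2.4.6, matplotlib 3.10.9 and pandas 2.3.3.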

Additional observations from a re-analysis of the deposited data

How the results depend on the processing

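Of 25 recomputed values, 13 stayed within 1.5 times the reported count or within the reported 95% interval. With q under 0.05 the median fold was 4.39 and the median pileup 15 reads. With a −log10 q of 5 or more, 321 members were left, 37.4% of them on chromosome 22, with a median fold of 5.40, a median pileup of 39 reads and a median background of 5.64. Both filters remove low folds and shallow peaks by construction. Without KI270729v1, which leaves fewer peaks in all, chromosome 22 held 40.3%. Joining peaks with gaps of at most 500 bp gave 519 intervals. The median over 27 contigs of their own medians was 8 reads for pileup and 1.09 for background, since contigs with few peaks then weigh as much as the others. Within 5 bp of a multiple of the alpha satellite unit lay 5.49% of distances, where 6.43% of remainders lie. Leaving out contigs for the shares of strong peaks was added after seeing the data. At the background minimum the shallowest members had 5 reads, so fewer reads there were not detectable in this list.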
